A study of Mus musculus with 4 samples.

Results

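Mature migratory dendritic cells (DCs) were examined in mouse tumours profiled by single-cell RNA sequencing. The authors had annotated 2914 of 4440 CD45+ cells as monocytes, macrophages and dendritic cells, a class they named MoMacDC. Within it, a cell was taken as a mature migratory DC when its raw counts of unique molecular identifiers (UMIs, tags that mark single RNA molecules) of Fscn1, Ccr7, Ccl22 and Cacnb3 summed to 3 or more. Members were thus chosen by their measured counts of these genes. This gate was passed by 156 cells, of which 50 came from anti-CD40 tumour 1, 72 from anti-CD40 tumour 2 and 34 from the untreated tumour. The remaining MoMacDC cells numbered 398 in anti-CD40 tumour 1, 1258 in anti-CD40 tumour 2 and 1102 in the untreated tumour. The 4 gate genes chose the cells and were left out of every level and test below.

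All mice carried the IL-12p40-IRES-EYFP transgene, in which a yellow fluorescent protein is made from the transcript of the p40 chain of interleukin-12, and all had flank tumours of MC38, a mouse colon carcinoma line, grown for 7 days. The anti-CD40 tumours came from 2 mice given 5 mg/kg of an agonist anti-CD40 monoclonal antibody intraperitoneally, and they were compared with 1 tumour of a mouse left untreated. Tissue was taken 2 days after the antibody, and CD45+ cells were sorted with the viability dye 7AAD and encapsulated by inDrops, a droplet method. The cells were spread over 12 libraries in 4 sequencing pools. Anti-CD40 tumour 1 and the untreated tumour shared pools 1 and 2, while anti-CD40 tumour 2 was alone in pools 3 and 4.

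Dendritic cells take up antigen in tissue, and on maturation they switch on the chemokine receptor CCR7, which leads them along lymphatic vessels to the draining lymph node, where they present the antigen to T cells. CD40 is the receptor through which helper T cells license them: it signals through TRAF adaptor proteins to the canonical and the alternative branch of NF-kB, and raises co-stimulatory molecules and cytokines such as interleukin-12. In tumours such cells carry activating and inhibitory ligands side by side, and they are a source of chemokines and of interleukin-12 for T cells.

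Depth differed between the conditions. The gated cells held 48038 UMIs in anti-CD40 tumour 1, 71725 in anti-CD40 tumour 2 and 15961 in the untreated tumour, with medians of 861, 910 and 419.5 UMIs per cell. In the remaining cells the medians were 1090, 925 and 425.5 UMIs in the same order of tumours. A level is given as CPM (counts scaled to a fixed total) of the UMIs summed over the cells of a tumour, with the gate genes left out of the total, so that 1 UMI in the gated cells corresponds to 21.3 CPM in anti-CD40 tumour 1, 14.3 CPM in anti-CD40 tumour 2 and 63.5 CPM in the untreated tumour. No cell barcode occurred in more than 1 library.

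NF-kB is the pathway that CD40 drives, and the promoters of 3 of its genes are shown because these genes were higher in the gated cells. Nfkbia and Tnfaip3 were also higher in the gated cells of the treated tumours than in those of the untreated tumour. Each run holds the 250 bases before the gene's start in RefSeq (GRCm38.p6), written along the strand of the gene, with matches to the kappa B consensus, a motif chosen after seeing the data, on either strand in capitals. Gene spans given further below are from GENCODE, where Tnfaip3 and Nfkb2 start further upstream. By those spans the Nfkb2 run lies wholly, and the Tnfaip3 run almost wholly, inside the gene.
Nfkbia, chr12:55492648-55492897, minus strand: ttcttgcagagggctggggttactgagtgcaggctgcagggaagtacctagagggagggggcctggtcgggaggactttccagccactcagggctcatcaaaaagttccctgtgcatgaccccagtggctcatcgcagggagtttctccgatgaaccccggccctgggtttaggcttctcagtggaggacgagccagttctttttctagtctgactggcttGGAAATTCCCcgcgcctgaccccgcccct
Tnfaip3, chr10:19015411-19015660, minus strand: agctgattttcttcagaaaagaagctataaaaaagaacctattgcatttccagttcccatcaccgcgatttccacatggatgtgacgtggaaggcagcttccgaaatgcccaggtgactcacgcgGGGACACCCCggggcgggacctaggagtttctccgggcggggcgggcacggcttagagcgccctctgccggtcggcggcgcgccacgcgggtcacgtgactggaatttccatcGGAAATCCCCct
Nfkb2, chr19:46304487-46304736, plus strand: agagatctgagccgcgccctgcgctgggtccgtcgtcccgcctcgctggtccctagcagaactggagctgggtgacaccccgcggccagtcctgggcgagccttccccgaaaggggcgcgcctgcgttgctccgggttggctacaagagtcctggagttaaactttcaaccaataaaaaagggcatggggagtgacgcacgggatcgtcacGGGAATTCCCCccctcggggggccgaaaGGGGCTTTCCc
The consensus matched 1 position in the Nfkbia sequence, 2 in Tnfaip3 and 3, of which 2 overlap, in Nfkb2. Over windows of 300 bases, which add the 50 bases after the start, the consensus occurred in 8.18% of the 27025 RefSeq promoters searched. It occurred in 10.7% of those of the genes tested between gated and remaining cells. Genes that were higher in the gated cells held it in 52 of 376 promoters (13.8%). Genes that were lower in the gated cells held it in 60 of 490 promoters (12.2%), so that it was not particular to the higher genes. Of the 15 promoters found for the higher genes of the CD40 and NF-kB list, 6 held it, and of the 17 found for genes that rose with treatment, 4 held it. A looser pattern of 3 G, any 5 bases and 2 C, searched on both strands and overlapping with the consensus, was in 70.7% of the promoters of higher genes and 68.5% of those of all genes tested. A match is a run of letters and no evidence of binding.

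The share of gated cells was higher in both treated tumours. They made up 11.2% of MoMacDC cells in anti-CD40 tumour 1 (95% exact Clopper-Pearson interval 8.40 to 14.4), 5.41% in anti-CD40 tumour 2 (4.26 to 6.77) and 2.99% in the untreated tumour (2.08 to 4.16). The 8 treated libraries ranged between 4.23% and 12.5% and the 4 untreated libraries between 2.35% and 3.77%, without overlap. Here and below, libraries are splits of the cells of a tumour, with all 4 untreated ones from 1 mouse. They are not replicates of the treatment. Of all CD45+ cells the shares were 4.08% (3.04 to 5.34), 3.97% (3.12 to 4.97) and 2.43% (1.69 to 3.38), and the treated libraries, between 3.02% and 4.78%, again lay above the untreated ones, between 2.01% and 2.98%. Anti-CD40 tumour 1 lay above anti-CD40 tumour 2 among MoMacDC cells, with intervals that did not overlap, and the treated tumours were nearly equal among all CD45+ cells, where the intervals of treated and untreated tumours overlapped. Of the 1226 CD45+ cells of anti-CD40 tumour 1, 700 were neutrophils, and among CD45+ cells other than neutrophils the shares were 9.51%, 4.50% and 2.52%, so that the treated tumours were apart there. The values per library are drawn in the plot of shares.

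**Figure D1:**
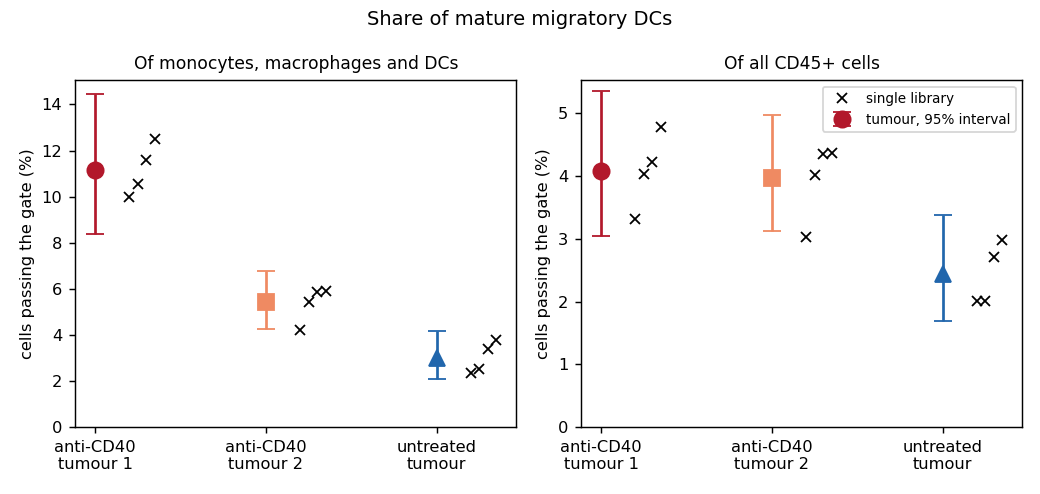
Share of cells passing the gate among MoMacDC cells (left) and among all CD45+ cells (right), in percent, for anti-CD40 tumours 1 and 2 and the untreated tumour. Large symbols with bars are tumours with exact 95% intervals, which cover counting error only. Crosses are the 4 libraries of each tumour, which are splits of its cells and not replicates of the treatment. Every treated library lies above every untreated one.

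With 2 treated and 1 untreated tumour, an exact permutation test over tumours cannot give a p below 0.333, so that no test of the share was made. Pools 1 and 2 allowed the comparison within a pool: 10.9% in anti-CD40 tumour 1 against 3.00% in the untreated tumour in pool 1, and 11.3% against 2.98% in pool 2. With every cell thinned to 300 UMIs, which left out 2, 2 and 7 gated cells as too shallow, the shares were 10.02%, 4.99% and 2.34%. The libraries then overlapped, with treated ones between 3.49% and 10.8% and untreated ones between 1.62% and 3.77%. They also overlapped at a gate sum of 2 or more, with treated ones from 4.58% and untreated ones up to 5.30%. In cells with at least 500 UMIs these limits were 3.61% and 4.35%. At gate sums of 4 or more and 6 or more the libraries stayed apart.

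The gate was nearly empty in neutrophils, NK cells and T cells. It was passed by 0 of 964 neutrophils and 0 of 197 NK cells, counts that allow shares as high as 0.311% and 1.52%. It was also passed by 3 of 333 T cells (0.901%, 0.186 to 2.61) and by 2 of 27 B cells (7.41%, 0.910 to 24.3), which were not members. The B cell share was not below the 5.35% of MoMacDC cells, but it rested on 2 cells. The 3 plasmacytoid DCs and 2 basophils were too few to give a share. Among the gated cells, 1 carried 3 or more UMIs of neutrophil markers and 0 carried as many markers of T, NK or B cells. The 16 T cell genes and the 10 B cell genes listed were all at 0 UMIs in the gated cells. Of the 11 NK cell genes listed, 9 were at 0. In anti-CD40 tumours 1 and 2 and the untreated tumour, the NK list summed to 128, 243 and 317 CPM in gated cells. These levels rested on 6, 17 and 5 UMIs, and the remaining cells had 45.6, 70.1 and 199 CPM. The 1 NK gene tested, Klrk1, was higher in the gated cells, with a log2 difference of 1.88.

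The gated cells of the untreated tumour lay nearer to the threshold. Their median gate sum was 17 UMIs in anti-CD40 tumour 1, 17.5 in anti-CD40 tumour 2 and 5 in the untreated tumour, and 6 of 50, 5 of 72 and 20 of 34 cells held 3 to 5 gate UMIs. Of the remaining cells, 96.8% held no gate UMI and 88 held 1 or 2. Genes of the mature DC program other than the gate genes were higher at higher gate sums when the tumours were pooled. Over all tumours, their summed level was 5087 CPM in cells with 0 gate UMIs, 9924 CPM with 1, 23046 CPM with 2, 29292 CPM with 3, 35218 CPM with 4 to 5, 37942 CPM with 6 to 9 and 48025 CPM with 10 or more. The 23 macrophage genes were at 33329 CPM with 0 gate UMIs, 30272 CPM with 1, 12320 CPM with 2, 9512 CPM with 3, 12882 CPM with 4 to 5, 6266 CPM with 6 to 9 and 2061 CPM with 10 or more, so that the fall was not steady. The tumours differed near the threshold, where 16 cells held 2 gate UMIs and 10 held 3. In anti-CD40 tumour 2 the mature DC genes were at 25719 CPM in the 4 cells with 2 gate UMIs, 9442 CPM in the 1 cell with 3 and 24661 CPM in the 4 cells with 4 to 5, and the macrophage genes at 12168, 23605 and 24353 CPM. In the untreated tumour the mature DC genes were at 15405 CPM in the 8 cells with 2 and 35238 CPM in the 7 cells with 3.

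**Figure D2:**
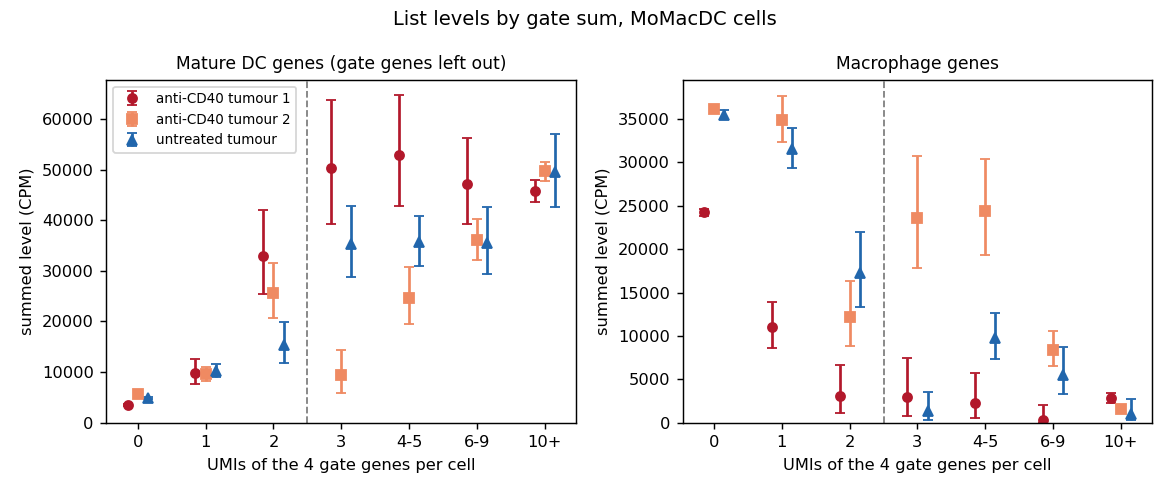
Summed level in CPM of 50 mature DC genes (left) and 23 macrophage genes (right) in MoMacDC cells by the number of gate UMIs per cell, for each tumour. Bars are exact 95% Poisson intervals, and the dashed line is the gate threshold; at 10 or more gate UMIs all 3 tumours lie high for mature DC genes and low for macrophage genes, while near the threshold, with few cells per point, anti-CD40 tumour 2 goes the other way (9442 CPM of mature DC genes in its 1 cell at 3, against 25719 CPM at 2).

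Genes the gate did not use were set beside the label. They describe it but cannot check it independently, as the lists were chosen with earlier results of these data known. Of 50 measured genes of the mature DC program, 39 passed the filter on low counts, and all 39 of these were higher in the gated cells, with a median log2 difference of 3.74, against -0.26 over all genes. A gene can pass this filter through the gated cells alone, so that the 39 of 39 was in part fixed in advance. Among 4456 genes tested with edgeR's quasi-likelihood method on sums per tumour, 467 were higher (10.5%) and 633 lower (14.2%) in gated than in remaining MoMacDC cells at a Benjamini-Hochberg adjusted p below 0.05. The gate itself divided the cells, and genes that go with its genes had to differ, so that these counts describe the cells and carry no weight as tests. Errors of log2 differences are standard errors of the fit.

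The genes with the largest differences upward included surface ligands. Cd70, the ligand of CD27 on T cells, had 574, 285 and 63.5 CPM in the gated cells of anti-CD40 tumour 1, anti-CD40 tumour 2 and the untreated tumour, where 63.5 CPM is a single UMI, and no UMI in the remaining cells of any tumour. Summed over tumours it was at least 299-fold higher in gated cells, taking 3 UMIs over the remaining cells as the limit. Sema7a, a membrane semaphorin, had 2043, 1669 and 444 CPM in gated cells, against 7.30, 2.17 and 16.2 CPM in remaining cells, a log2 difference of 7.45 ± 0.50. All 3 tumours showed these differences, and gated and remaining values did not overlap. Cd200, the ligand of an inhibitory receptor on myeloid cells, differed by 6.43 ± 0.52, and Ly75, the endocytic receptor DEC-205 of dendritic cells, by 6.07 ± 0.63.

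Signalling and survival genes stood beside them. Tbc1d4, a Rab GTPase-activating protein, had 1404, 1769 and 1904 CPM in gated cells and 7.30, 6.51 and 27.1 CPM in remaining cells (7.03 ± 0.43). Serpinb6b and Serpinb9, protease inhibitors of which the second blocks granzyme B, differed by 6.81 ± 0.47 and 5.85 ± 0.47, and Net1, an exchange factor for RhoA, by 6.04 ± 0.48. Adcy6, an adenylyl cyclase, Slc27a3, of the fatty acid transport family, and Tmem150c, a membrane protein, were at 0 or 1 UMI in all remaining cells together, against 39, 46 and 30 UMIs in gated cells. Apol7c, an apolipoprotein L family gene, had 37 UMIs in gated and 3 in remaining cells. Stat4, the transcription factor downstream of the interleukin-12 receptor, differed by 5.74 ± 0.56, and Ramp3, which modifies calcitonin-family receptors, by 5.48 ± 0.41.

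**Figure D3:**
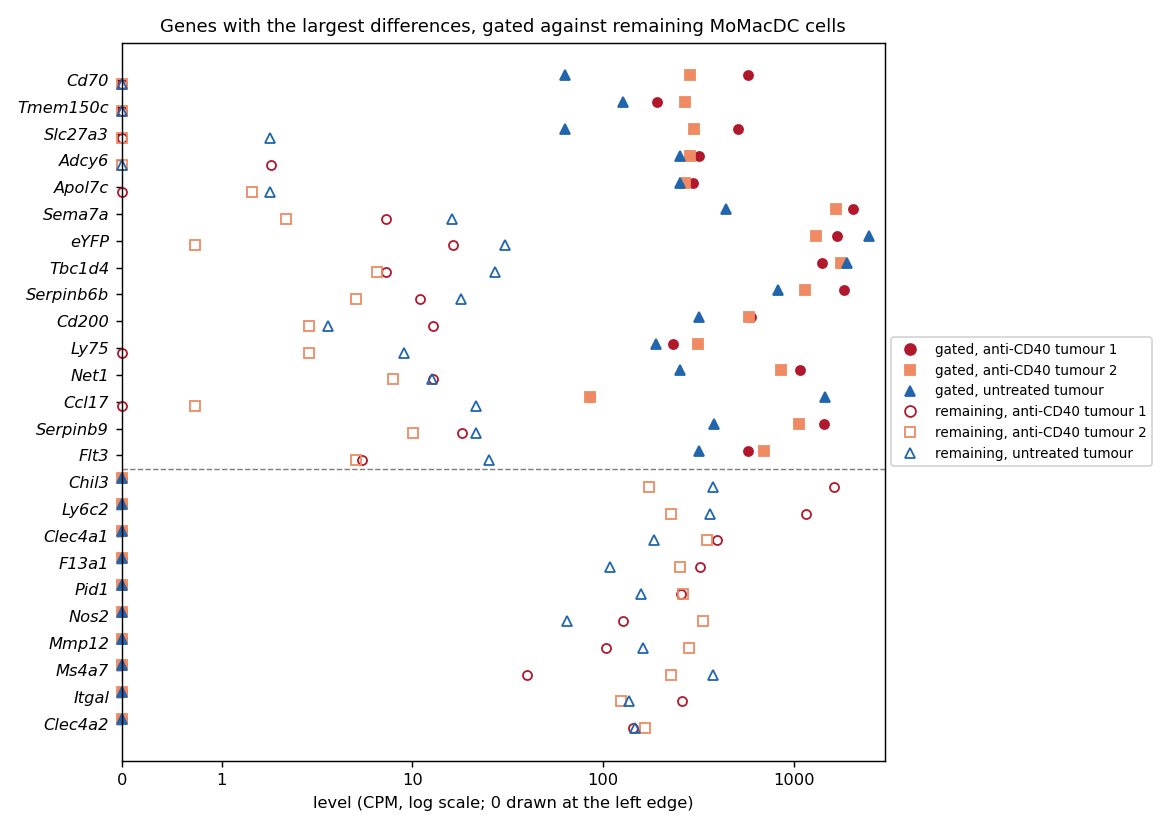
Level in CPM (log axis, 0 at the left edge) of the 15 genes with the largest differences upward (above the dashed line) and the 10 with the largest downward, in gated cells (filled) and remaining MoMacDC cells (open) of each tumour. In the upper genes all filled symbols lie right of the open symbols of the same tumour, and the lower genes are at 0 in gated cells of every tumour.

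The reporter of interleukin-12 p40 was among these genes. The eYFP transcript had 1681, 1312 and 2475 CPM in gated cells of anti-CD40 tumour 1, anti-CD40 tumour 2 and the untreated tumour, and 16.4, 0.72 and 30.7 CPM in remaining cells, a log2 difference of 7.09 ± 0.43. At least 1 UMI was found in 24 of 50, 26 of 72 and 16 of 34 gated cells, and in 14 of 2758 remaining cells, 0 of 333 T cells and 0 of 964 neutrophils. So 42.3% of all gated cells (34.4 to 50.5) carried the reporter, against 0.508% of the remaining cells. At 300 UMIs per cell the shares of gated cells with the reporter were 31.2% and 22.9% in anti-CD40 tumours 1 and 2 and 40.7% in the untreated tumour, and the difference was not tested. Il12b itself, which encodes p40, was found with 1 UMI in each of 2 gated cells, both treated, and in 0 of the remaining cells, and Il12a, which encodes the p35 chain of the cytokine, in no MoMacDC cell. Of the 2 cells with Il12b, 1 also held eYFP.

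The CD40 and NF-kB genes were higher as a group: of 30 measured, 29 were tested, 19 were higher and 0 lower, with a median log2 difference of 1.63. Over all genes tested, 10.5% were higher and 14.2% lower. The receptor gene Cd40 had 745, 728 and 127 CPM in gated cells and 38.3, 50.6 and 65.0 CPM in remaining cells (3.44 ± 0.41). Its adaptor Traf1 had 2213, 1598 and 1904 CPM against 221, 182 and 108 CPM (3.35 ± 0.31). Gated values lay above remaining ones in every tumour for both genes. Of the alternative branch, Relb, a subunit, differed by 3.76 ± 0.40, Nfkb2, its partner, by 2.19 ± 0.38, and Map3k14, the kinase that starts it, by 2.60 ± 0.51. Of the canonical branch, Rel differed by 2.37 ± 0.42 and Nfkb1 by 1.48 ± 0.37, and the inhibitors Nfkbia, Nfkbib and Nfkbie by 1.35 ± 0.24, 2.36 ± 0.41 and 1.55 ± 0.45. The survival genes Birc2 and Birc3, which act in the same pathway, differed by 4.42 ± 0.50 and 1.24 ± 0.49.

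Co-stimulatory and co-inhibitory molecules were mostly higher. Of 27 measured, 19 were tested, 14 were higher and 5 lower, beside 10.5% higher and 14.2% lower over all genes tested. Cd80 and Cd86, the ligands of CD28, differed by 2.49 ± 0.41 and 1.90 ± 0.39, and Cd83, a maturation marker, by 3.28 ± 0.31. Cd274, which encodes PD-L1, differed by 1.60 ± 0.38 and Pdcd1lg2, which encodes PD-L2, by 3.88 ± 0.58. Cd274 had 468, 685 and 571 CPM in gated cells, against 148, 225 and 150 CPM in remaining cells. The 5 lower genes were Vsir and Havcr2, which encode the checkpoint proteins VISTA and TIM-3, Lgals9, a ligand of TIM-3, Cd48 and the hyaluronan receptor gene Cd44.

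Chemokines and cytokines went in opposite directions. Of 36 measured, 20 were tested, 5 were higher and 14 lower, beside 10.5% higher and 14.2% lower over all genes tested. Ccl5, a chemokine that attracts T cells, had 7383, 7346 and 7107 CPM in gated cells and 407, 542 and 413 CPM in remaining cells (3.87 ± 0.25), and at least 1 UMI in 46 of 50, 63 of 72 and 25 of 34 gated cells. Its summed level was nearly the same in the gated cells of the 3 tumours, but single libraries differed widely. They ran from 887 to 16102 CPM in the untreated tumour and from 3274 to 12774 CPM in the treated ones. Ccl17, a ligand of CCR4, differed by 5.86 ± 0.64, Ebi3, a subunit of interleukin-27, by 2.76 ± 0.45, Cxcl1, a neutrophil attractant, by 1.95 ± 0.59 and Cxcl16, the ligand of CXCR6, by 1.17 ± 0.32. Cxcl1 rested on 4, 25 and 0 UMIs in the gated cells. The lower genes included the myeloid attractants Ccl4, with 3 UMIs in gated cells against 1843 in remaining cells, and Ccl2, with 0 against 342, and Cxcl2, another neutrophil attractant (-3.10 ± 0.33). Il1b was lower by a small margin (-0.80 ± 0.24), with 1872, 2553 and 2031 CPM in gated cells and 2872, 4076 and 3372 CPM in remaining cells.

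Antigen presentation split by class. Of 18 genes of major histocompatibility complex (MHC) class I presentation, all 18 were tested, 9 were higher and 2 lower, among them B2m, the light chain (0.56 ± 0.20), and H2-K1, a heavy chain (0.59 ± 0.21). Over all genes tested, 10.5% were higher and 14.2% lower, so that the 2 lower class I genes were not above this background. Of 10 class II genes tested out of 13, 0 were higher and 6 lower. Cd74, the class II chaperone, was lower by 0.67 ± 0.22 on the log2 scale and the protease gene Ctss, which trims the chaperone, by 1.71 ± 0.25, and the log2 differences of H2-Eb1 and H2-Aa, class II chains, were -0.38 ± 0.22 and -0.32 ± 0.22 and did not pass the threshold. March1, whose ligase removes class II from the surface, had 0 UMIs in gated cells.

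Of 16 genes of conventional DC identity measured, 11 were tested, 7 were higher and 2, Itgax and Naaa, lower. Of 7 type 1 genes tested, 2 were higher, Irf8 and Batf3, and 4 lower, Wdfy4, Naaa, Ppt1 and Rab7b, with a median log2 difference of -2.35. Of 6 type 2 genes tested, 1 was higher, Tnfsf9, and 3 lower, Sirpa, Itgam and Klf4. Over all genes tested, 10.5% were higher and 14.2% lower, and 1 higher gene of 6 cannot be told from that share. Flt3, the receptor for the growth factor of DCs, had 574, 699 and 317 CPM in gated cells, against 5.48, 5.06 and 25.3 CPM in remaining cells (5.75 ± 0.47). Zbtb46, a transcription factor of conventional DCs, differed by 6.21 ± 0.72, Dpp4, a surface protease, by 4.00 ± 0.66, Id2, a transcription factor needed for them, by 2.31 ± 0.28, and Irf8 and Batf3, factors of type 1 conventional DCs, by 2.93 ± 0.28 and 3.84 ± 0.58. Xcr1 and Clec9a, which mark resting type 1 cells, were at 0 UMIs in all 156 gated cells, which allows a share of cells with a UMI of up to 1.92%, but Xcr1 was found in only 7 and Clec9a in 0 of the 2758 remaining cells. Cd209a, a type 2 marker, was also at 0, and 8 gated cells held a UMI of Cd209a, Clec10a or Mgl2. The subset of the gated cells was not resolvable at this depth.

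Macrophage and monocyte genes were low, beside 10.5% higher and 14.2% lower over all genes tested. Of 20 macrophage genes tested, 19 were lower and 1, Cd63, which encodes a tetraspanin also on the mature DC list, was higher; all 11 monocyte genes tested were lower. The summed macrophage level was 2660, 4194 and 5203 CPM in gated cells of anti-CD40 tumour 1, anti-CD40 tumour 2 and the untreated tumour, against 24022, 36018 and 35185 CPM in remaining cells. Lyz2, lysozyme, was lower by 4.19 ± 0.27 and Apoe, apolipoprotein E, by 4.24 ± 0.32. Chil3 and Ly6c2, monocyte genes, had 0 UMIs in gated cells against 1342 and 1151 in remaining cells, at least 23.9-fold and 20.5-fold lower with 3 UMIs as the limit. C1qa, a complement gene of macrophages, was found in 0 of 50, 5 of 72 and 5 of 34 gated cells, and in 1 of 48, 1 of 135 and 22 of 150 T cells, which should lack it. In the untreated tumour the share of cells with C1qa was 14.7% in gated cells and in T cells, and 3.70% and 7.26% at 300 UMIs per cell. The macrophage UMIs of its gated cells were uneven, with 56 in the 13 cells at 4 to 5 gate UMIs and 4 in the 7 cells at 3, and their source was not tested.

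Other groups were compared as well, beside 10.5% higher and 14.2% lower over all genes tested. Of 26 type I interferon genes tested, 0 were higher and 15 lower, and of 21 glycolysis and hypoxia genes 15 were lower and 1, Ndrg1, a hypoxia-responsive gene also raised on differentiation, was higher. Of 35 migration and cytoskeleton genes, 15 were higher and 7 lower, with Tmsb4x, which binds actin monomers, and Actb among the higher (1.45 ± 0.19 and 1.16 ± 0.20). The proliferation gene Mki67 was found in 0 of 156 gated cells and in 46 of 2758 remaining cells. Of signs of RNA quality, 9 of 11 mitochondrial genes were lower and 0 higher, and 4 of 17 dissociation stress genes were lower. Ribosomal protein genes had 3 higher and 7 lower of 79, with a median log2 difference of -0.22 against -0.26 over all genes. Their part in the differences was not tested.

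**Figure D4:**
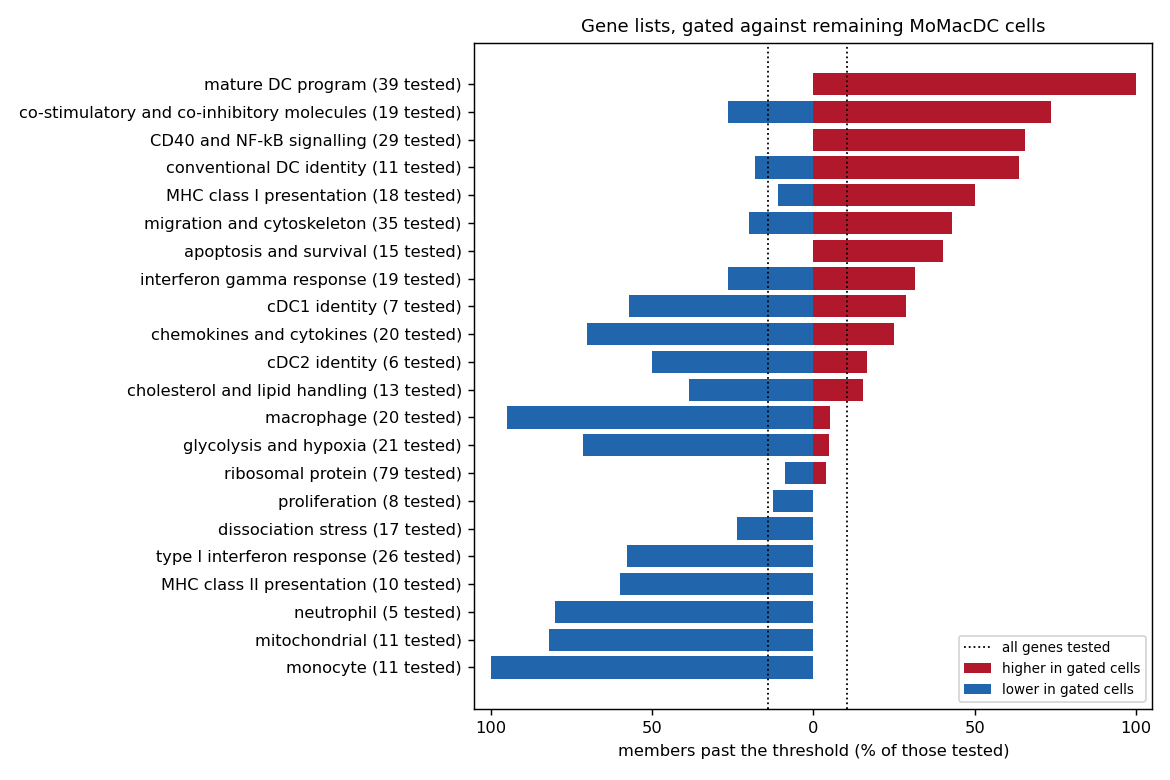
Share of each list's tested genes, in percent, that were higher (right, red) or lower (left, blue) in gated than in remaining MoMacDC cells, for lists with at least 5 tested genes. Dotted lines give the share over all genes tested, 10.5% higher and 14.2% lower; mature DC, CD40 and NF-kB and co-stimulatory lists lie far to the right and monocyte and macrophage lists far to the left.

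Within the gated cells, anti-CD40 tumours were compared with the lone untreated tumour, and rose and fell mean higher and lower in the treated ones. The gated cells differed in depth and gate sum between these tumours. The comparison therefore cannot tell a change within mature DCs from a change in which cells passed the gate. Cd40 and the NF-kB inhibitor genes Nfkbia and Tnfaip3 rose, and the class II genes Cd74 and H2-Eb1 and the chemokine gene Ccl17 fell. Cd40 and Tnfaip3 were found in only 2 and 1 of the 34 untreated gated cells. Nfkbia and Tnfaip3 did not pass at the tighter gate described below. Of 1113 genes tested, 23 rose (2.07%) and 7 fell (0.629%), together 2.7%, and 171 had an unadjusted p below 0.05 (15.4%). With 0.5 added to each count, all 30 called genes had the same direction in each treated tumour and within pools 1 and 2. For Ccl17 in pool 2, with 1 treated UMI and 0 untreated ones, the direction came from the added count. The calls came from these same cells, and 11 of the genes had no untreated UMI. The shared direction was thus largely fixed in advance and is no replication. The gated cells of the untreated tumour were shallower and nearer to the threshold, and the part of this in the differences was not tested. The fit had 1 residual degree of freedom and assumes that the lone untreated tumour varies like the treated ones, and the prior degrees of freedom were infinite for most genes, so that p-values rest on a spread shared over genes. DESeq2 called 0 genes higher and 1 lower, and at 300 UMIs per cell 2 rose and 2 fell of 326 tested.

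Cd40 (chromosome 2, 165055627 to 165072948, GRCm38), the target of the antibody, had 35 UMIs in anti-CD40 tumour 1, 51 in anti-CD40 tumour 2 and 2 in the untreated tumour, or 745, 728 and 127 CPM. It was high in both treated tumours and without overlap over libraries, of which the treated held 518 to 990 CPM and the untreated 0 to 424 CPM. Each untreated library held only 0 or 1 UMI of Cd40. The log2 fold change was 2.55 ± 0.79 (edgeR adjusted p = 0.0491), and with only 2 untreated UMIs the ratio of summed levels was 5.79, with a counting interval of 1.55 to 48.5. The call was lost with plain library sizes, without the low-count filter, without cells holding second-type markers, at 300 UMIs per cell, by DESeq2 and when any of the 4 pools was left out. At least 1 UMI was found in 38.0%, 33.3% and 5.88% of gated cells, and at 300 UMIs per cell in 12.5%, 17.1% and 7.41%. In the remaining cells Cd40 had 38.3, 50.6 and 65.0 CPM, and the interaction, the difference between the treatment effects in gated and remaining cells, was 3.47 on the log2 scale (adjusted p = 0.243).

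Of 22 tested genes of the CD40 and NF-kB list, 3 rose and 0 fell, beside 2.07% and 0.629% of all genes tested. The median log2 fold change was 0.54 against 0.16 over all genes. The 12 dissociation stress genes tested, a sign of sample handling, had a median of 1.42, and the summed level of that list was 9362 and 14379 CPM in the treated tumours and 6219 CPM in the untreated tumour. Its part in the changes of the NF-kB genes was not tested. Nfkbia (chromosome 12, 55489410 to 55492647), the inhibitor IkB-alpha that NF-kB induces, had 5149 and 6205 CPM in the treated tumours and 2411 CPM in the untreated tumour. Its treated libraries spanned 4596 to 9149 CPM and overlapped with the untreated ones, at 882 to 5508 CPM. The log2 fold change was 1.28 ± 0.35 (edgeR adjusted p = 0.0160), and 0.85 without pool 1 (adjusted p = 0.305) and 1.22 without pool 3 (adjusted p = 0.0779). Tnfaip3 (chromosome 10, 19000910 to 19015657), the ubiquitin-editing inhibitor A20, had 39, 49 and 1 UMIs, or 830, 699 and 63.5 CPM. It was high in both treated tumours (3.56 ± 0.93, edgeR adjusted p = 0.0127), and the ratio to the single untreated UMI was 11.8 with a counting interval of 2.07 to 473. Without pool 1 its adjusted p was 0.0700 and without pool 2 it was 0.113. The promoters of both genes are printed above. Relb, Nfkb2 and Traf1 had log2 fold changes of -0.24 ± 0.57, 0.50 ± 0.51 and 0.03 ± 0.39 and did not pass the test.

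Of the 38 tested genes of the mature DC program, 2 rose, Cd40 and Marcksl1, and 1 fell, Ccl17. Over all genes tested, 2.07% rose and 0.629% fell. Marcksl1, an actin regulator, had 2404 and 2297 CPM in the treated tumours and 698 CPM in the untreated tumour (1.79 ± 0.48, edgeR adjusted p = 0.0160; 0.119 without pool 1 and 0.0611 without pool 2). Ccl17 (chromosome 8, 94810453 to 94812036) had 4 and 6 UMIs in the treated tumours and 23 in the untreated tumour, or 85.1, 85.6 and 1459 CPM. It was low in both treated tumours, and the fall was 4.01 ± 0.57 on the log2 scale (edgeR adjusted p = 2.98e-09; 0.203 by DESeq2 and 0.104 at 300 UMIs per cell). Only 2 of 50, 4 of 72 and 6 of 34 gated cells held it, and treated libraries spanned 0 to 345 CPM and untreated ones 0 to 2758 CPM, so that the groups overlapped over libraries. Within pools, with 0.5 added to each count, the log2 ratio was -3.93 in pool 1 and -0.50 in pool 2. In pool 2 the treated tumour held 1 UMI of Ccl17 and the untreated tumour 0. The negative ratio there came from the added count at unequal depth and shows no fall. Ccl5 had a log2 fold change of 0.09 ± 0.29 (edgeR adjusted p = 0.904).

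Of 6 class II genes tested, 2 fell and 0 rose, while 0.629% fell and 2.07% rose over all genes tested. Cd74 (chromosome 18, 60803848 to 60812652) had 2574 and 2568 CPM in the treated tumours and 8122 CPM in the untreated tumour. The treated tumours were nearly equal and low, with libraries between 1381 and 5296 CPM, which overlapped with the untreated ones between 2542 and 15084 CPM. The fall was 1.62 ± 0.30 on the log2 scale (edgeR adjusted p = 3.77e-05), and Cd74 was the 1 gene that DESeq2 called (adjusted p = 0.0206). Without pool 2 the log2 fold change was -1.04 (adjusted p = 0.0611). H2-Eb1 (chromosome 17, 34305867 to 34316674), a class II beta chain, had 2425, 3894 and 8693 CPM and fell by 1.40 ± 0.29 (edgeR adjusted p = 0.000620; 0.189 without pool 1 and 0.243 without the low-count filter). The other 4 did not pass the test, and H2-Aa had a log2 fold change of -0.72 ± 0.30 (adjusted p = 0.176). Cd74 was also found in 12.5%, 9.63% and 16.0% of T cells, in the order of anti-CD40 tumour 1, anti-CD40 tumour 2 and the untreated tumour, and in 58.0%, 51.4% and 79.4% of gated cells. Macrophage genes, summed, were at 2660, 4194 and 5203 CPM in the gated cells, and their part in the fall was not tested. Of 15 class I genes tested, 2 rose, H2-Q7, a nonclassical heavy chain (1.38 ± 0.42, edgeR adjusted p = 0.0460; 0.103 without pool 1, 0.0881 without pool 2 and 0.104 without pool 3), and Psme2, a subunit of the proteasome activator PA28.

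Srgn (chromosome 10, 62493833 to 62527451), the proteoglycan of secretory granules, had 3085 and 3837 CPM in the treated tumours and 825 CPM in the untreated tumour. Treated libraries, at 2589 to 4612 CPM, lay above the untreated ones, at 0 to 1379 CPM. Its log2 fold change was 2.11 ± 0.45 (edgeR adjusted p = 0.000940; 0.438 by DESeq2). Sema7a (chromosome 9, 57940112 to 57962865) had 2043, 1669 and 444 CPM, with treated libraries at 1138 to 3420 CPM above untreated ones at 353 to 592 CPM. Sema7a rested on only 1 or 2 UMIs in each untreated library. It rose by 2.09 ± 0.54 (edgeR adjusted p = 0.0124; 0.151 without pool 1), and at least 1 UMI was found in 60.0%, 62.5% and 17.6% of gated cells. Actn1, an actin crosslinker, rose by 1.65 ± 0.48 (edgeR adjusted p = 0.0375; 0.247 without pool 1 and 0.0720 without pool 3), and Epsti1, an interferon-induced gene, by 3.09 ± 0.74 on 51, 74 and 2 UMIs (edgeR adjusted p = 0.00602; 0.105 without pool 2).

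Of the 23 genes that rose, 11 had no UMI in the gated cells of the untreated tumour, and for these only a lower bound of the fold change holds, with 3 UMIs as the limit. Ttyh3, a chloride channel family gene, was at least 3.27-fold higher, Klf2, a transcription factor of quiescence and trafficking, at least 3.23-fold, Rftn1, a lipid raft protein, at least 3.01-fold and Psme2 at least 2.65-fold. The lowest bound among the 11 was 1.79-fold, for Rala, a small GTPase. Zfp36, which degrades cytokine messenger RNAs and was the 1 riser among the 12 dissociation stress genes tested, had 1681, 2939 and 698 CPM (1.79 ± 0.48, edgeR adjusted p = 0.0160; 0.0686 without pool 1, 0.0881 without pool 2 and 0.0503 without pool 3). Klf6, a transcription factor induced by stimulation, had 1426, 1797 and 508 CPM, and Ndrg1 had 1170, 1127 and 254 CPM. The other genes that fell were Specc1, Nr4a3, which encodes an orphan nuclear receptor, Atox1, a copper chaperone, and the ribosomal gene Rps21, 1 of 76 ribosomal protein genes tested. The reporter eYFP had a log2 fold change of -0.69 ± 0.38 (adjusted p = 0.367).

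**Figure D5:**
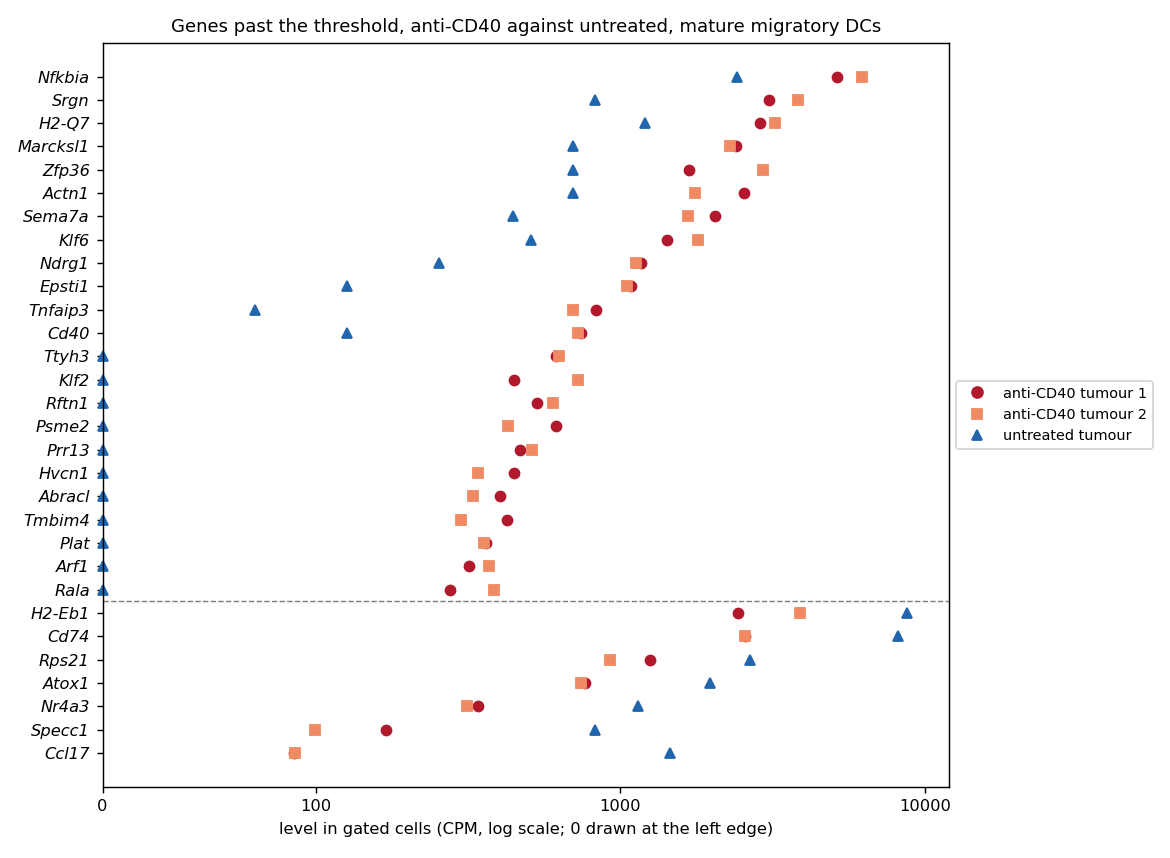
Level in CPM (log axis, 0 at the left edge) in the gated cells of anti-CD40 tumours 1 and 2 and of the untreated tumour, for the 23 genes that rose (above the dashed line) and the 7 that fell. The symbols of the treated tumours lie together on the same side of the untreated tumour in all 30, which were called from these same values. Of the risers, 11 are at 0 in the untreated tumour.

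A tighter gate, chosen after seeing that untreated cells lay near the threshold, kept the cells with 6 or more gate UMIs, which were 44, 67 and 14. It called 10 genes higher and 4 lower, of which 4 and 4 were among those above. Srgn, Cd40, Zfp36 and Actn1 were still higher and Cd74, H2-Eb1 and Ccl17 still lower, and Nfkbia (adjusted p = 0.192), Tnfaip3 (0.201) and Sema7a (0.0867) no longer passed.

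The difference between the treatment effects in gated and remaining MoMacDC cells was tested as an interaction, with the tumour as a block. Of 6567 genes tested, 6 had a higher effect in gated cells (0.0914%) and 0 a lower one, 216 (3.29%) had an unadjusted p below 0.05, and DESeq2 called 0. The test compared each interaction with 0, whereas the median over all genes was 0.95 on the log2 scale, and 0.59 with plain library sizes. Neither the counts of 6 higher and 0 lower nor the p-values below take this median into account. Socs2, a feedback inhibitor of cytokine signalling, had 1043 and 1712 CPM in gated cells of the treated tumours and 888 CPM in those of the untreated tumour, but 16.4, 17.3 and 107 CPM in the remaining cells of the same tumours. Its interaction was 3.74 (edgeR adjusted p = 0.000206), and the treated tumours were low among the remaining cells and at or above the untreated tumour among the gated cells. Srgn, with 1999, 3579 and 2966 CPM in remaining cells, had an interaction of 2.64 (adjusted p = 0.00377), Actn1 of 3.04 (adjusted p = 0.00377), Sema7a of 4.47 (adjusted p = 0.0220) and Ly86, which encodes MD-1, of 4.44 (adjusted p = 0.0453) on 14, 36 and 1 UMIs in gated cells. Ttyh3 passed with no untreated UMI, and no size is given. Without pool 1 the adjusted p of Socs2 was 0.0577, that of Actn1 0.0603, that of Sema7a 0.408 and that of Ly86 0.316, and without pool 4 that of Srgn was 0.295. Without pool 2 the adjusted p was 0.173 for Actn1, 0.213 for Sema7a and 0.250 for Ly86.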

How the data were processed

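The submitters' processing notes name STAR, bcl2fastq and the build GRCm38; tool versions, the annotation and the strand setting were not stated there. The authors deposited raw UMI counts per cell, 22631 genes in 12 libraries, with a cell type and a sample for each cell. Counts were summed per tumour and gate class without the gate genes, and tested with edgeR 4.0.16 (quasi-likelihood, TMM, filterByExpr, robust) in R 4.3.3, with Benjamini-Hochberg adjustment and a threshold of 0.05; DESeq2 1.42.0 was an alternative. The comparison of gated with remaining cells had the tumour, which is the same animal in both classes, as a block. The members and gene lists were chosen with earlier results of these data known. Intervals are at 95% and cover counting error only.

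Named genes were, for gated against remaining cells, the 15 largest differences upward and the 10 downward among those past the threshold, in the same direction in all 3 tumours and with at least 30 UMIs; for treatment and the interaction, those with the largest changes, up to 10 in each direction; Cd40 and Il12b; and, per list, up to 4 genes with most UMIs and members past the threshold in the main lists. Other genes named in the text, among them the remaining genes that rose with treatment, were chosen after their values were seen. No doublet caller was run; the cells with markers of a second type were left out as an alternative. Where genes overlap on opposite strands, as Tmbim4 and Irak3 or Hvcn1 and Tctn1 do, their reads may not be separated. Scripts were tested on simulated data.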

Additional observations from a re-analysis of the deposited data

Results flagged for a closer look

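The level of Cd70 in the gated cells of the untreated tumour came from 1 library, at 296 CPM from 1 UMI, with the other 3 libraries at 0, so that the gap to the nearest library divided by the range was 1. The eYFP level was 6356 CPM in 1 untreated library, from 15 UMIs in 6 cells, and 1588 to 2070 CPM in the other 3, a gap over range of 0.899. Both are above the critical value of 0.829 for 4 libraries, as 2 of 39 groups of libraries compared were, and chance alone gives about 1 in 20, a level of 0.05.

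The effect of treatment differed between gated and remaining MoMacDC cells by edgeR's quasi-likelihood test of the interaction in 6 genes, with adjusted p = 0.00175 for Ttyh3, 0.00377 for Srgn, 0.000206 for Socs2, 0.0220 for Sema7a, 0.0453 for Ly86 and 0.00377 for Actn1. DESeq2 called 0 of them, and without pool 1, 5 of them did not pass. The test was against 0, whereas the median interaction over all 6567 genes was 0.95 on the log2 scale. Ttyh3 had no UMI in the gated cells of the untreated tumour.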

How the results depend on the processing

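The untreated group was 1 tumour, and its gated cells held fewer UMIs, which limits every treatment result. For gated against remaining cells, 467 higher and 633 lower genes became 184 and 260 with cells thinned to 300 UMIs, 392 lower without pool 1 and 402 lower without pool 2; leaving out an anti-CD40 tumour gave 217 to 279 higher and 308 to 311 lower. The comparison with no replicate block gave 433 higher and 570 lower, and Ccl17, Cxcl16, Chil3, Nos2, Ms4a7 and Cd1d1 did not pass in it. For treatment, 23 higher and 7 lower genes became 0 and 1 with DESeq2, 41 and 24 at a gate sum of 2 or more, 10 and 4 at 6 or more, 2 and 2 thinned, 4 and 1 without pool 1, and 5 and 2 without pool 2. Higher genes were 15 with plain library sizes, 13 with cells of at least 500 UMIs and 11 without pool 3, and lower genes 2 without the low-count filter and 4 at a gate sum of 4 or more and without pool 4. The 6 higher interactions became 0 with DESeq2, 3 with plain library sizes (and 1 lower), 11 at a gate sum of 4 or more, 26 at 6 or more, 22 with at least 500 UMIs, 1 thinned, 3 without pool 1 and 2 without pool 2. The cause was not tested. The eYFP treatment change was -0.69 on the log2 scale and 0.016 with cells of at least 500 UMIs, neither past the threshold. The share was 4.08% and 3.97% in anti-CD40 tumours 1 and 2 among CD45+ cells, and 1.23% in the untreated tumour at a gate sum of 6 or more. The treated mean lay above the untreated share by 5.29 percentage points, and by 2.42 to 8.17 when a treated tumour was left out.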
